A study of Mus musculus with 11 samples.

Results

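Among 54146 annotated genes measured in single 8-cell mouse embryos, 24 genes were lower in every embryo without *Prdm10* than in every control and had not been set aside by name. They were selected on these measured values. A gene had to have a mean of at least 5 TPM in controls (a transcript level scaled for gene length and library size), a TPM in all 5 mutants below that in all 6 controls, and a mutant mean of at most 0.6 times the control mean. *Prdm10*, the mitochondrially encoded genes and 14 other genes were left out by name (*Eef1d*, *Selenow*, *Ube2a*, *Pfdn4*, *Ankrd13a*, *Rnasek*, *2410006H16Rik*, *Cenpn*, *Uchl3*, *Ss18*, *Prdx2*, *Tardbp*, *Eif3b* and *Frat1*). In all, 38 of the 7431 genes with a control mean of at least 5 TPM met the 3 conditions, 14 of them left out by name, and no mitochondrially encoded gene met them. Since the conditions use the difference between mutants and controls, that difference is given as a description, with no p-value.

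Embryos were C57BL/6, collected at E2.5 from matings between *Prdm10*Δ/+ mice. The mutants were *Prdm10*Δ/Δ (*Prdm10* KO), with exon 5 deleted on both alleles. The deleted allele came from crossing a floxed allele to ACTB-Cre mice, a line in which Cre acts in the whole embryo. The controls were *Prdm10*+/+ or *Prdm10*Δ/+, which the labels do not tell apart. Embryos were placed in these groups by whether exon 5 was detected in their own cDNA, and all were offspring of mothers with 1 functional allele.

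PRDM10 is a zinc finger protein that binds DNA near the starts of genes. At the 8-cell stage most maternal transcripts have been cleared, the embryonic genome is active, and the cells are about to compact and form the first epithelium. The 24 genes encode proteins of autophagy and lysosomes, mitochondria, the cell cycle and DNA methylation, protein turnover and signalling, and they include a pseudogene and RNAs with no known protein.

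The libraries held 3534735 to 7195942 summed expected counts in controls and 5402858 to 8265840 in mutants. Batch 1 (3 controls, 2 mutants) was pre-amplified with 16 PCR cycles and batch 2 (3 controls, 3 mutants) with 13. *Prdm10* was at 11.1 to 24.8 TPM in controls and 4.88 to 8.16 TPM in mutants. The 8 preimplantation markers checked ranged, in order of their control means, from *Dppa3* at 5132 ± 653 TPM (SD, n = 6) in controls and 4973 ± 395 TPM (SD, n = 5) in mutants to *Krt8* at 2.27 ± 1.79 TPM (SD, n = 6) in controls and 4.23 ± 4.04 TPM (SD, n = 5) in mutants. Their median log2 fold change was 0.44, and 1 of them, *Klf5*, was higher in mutants, at 97.1 ± 17.1 TPM (SD, n = 6) in controls and 172 ± 22.7 TPM (SD, n = 5) in mutants (DESeq2 adjusted p = 1.07e-06). *Pou5f1* was at 134 ± 90.2 TPM (SD, n = 6) in controls and 244 ± 184 TPM (SD, n = 5) in mutants (DESeq2 adjusted p = 0.123). The 7 cumulus and granulosa cell markers summed to at most 0.47 TPM in any control and 7.83 TPM in any mutant, with *Foxl2*, *Has2* and *Ptx3* at 0 in all 11 libraries. The 4 oviduct markers summed to at most 25.8 TPM in controls and 32.0 TPM in mutants, nearly all of it *Ovgp1*, and the 5 blood markers to at most 33.4 and 9.62 TPM. What part other cells, or the shift in these markers, had in the results was not tested.

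Of the 24 genes, 10 were on the study's list of genes with PRDM10 bound in mouse embryonic stem cells (41.7%), a list made from other samples. They were *Atg101*, *Cd164*, *Mterf3*, *Bccip*, *Mrps11*, *Asah1*, *Mia2*, *Uchl1*, *Dnmt1* and *Fam173b*. Of the 7392 genes with a control mean of at least 5 TPM that were neither among the 24 nor left out by name, 224 were on it (3.03%). Seen from the list, 249 bound genes reached 5 TPM in controls, and 4.02% of them were among the 24. The 15 genes left out by name were all on the list. The median control mean was 53.7 TPM over the 10 members on the list and 10.2 TPM over the 14 others, and the median ratio of mutant to control mean was 0.443 and 0.351. These medians were not compared by a test.

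The DNA sequence that PRDM10 recognises was taken from the study's gel-shift probes, which are shown because the search of promoters rests on them. Capitals mark the bases that differ between the wild-type and the mutated probe.
wild-type probe: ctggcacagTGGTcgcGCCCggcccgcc
mutated probe: ctggcacagCAACcgcATTTggcccgcc
A pattern was read from the first changed block and the last 2 bases of the second, TGGTNNNNNCC, and searched on both strands. A stricter pattern kept both changed blocks whole, TGGTNNNGCCC, and is contained in the first. The windows were the RefSeq promoters of GRCm38.p6, which run from 250 bases before to 50 bases after an annotated start. Of the 24 genes, 18 had at least 1 such promoter (*Fam173b* under its later symbol *Atpsckmt*), and *Asah1*, *Mterf3*, *Obox8*, *Gm11544*, *Gm21762* and *Mir1191* had none in the table.

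The pattern was present in at least 1 promoter of 9 of these 18 genes (50%). It was found for all 8 bound genes with a promoter and for 1 of the 10 others, *Gnpda2*. Over all 27025 genes in the promoter table the share was 15.6%, over the 5519 with a control mean of at least 5 TPM it was 16.6%, and over the 197 of those on the bound list it was 47.7%. The stricter pattern was in 2 of the 18 (11.1%), *Bccip* and *Cd164*, against 2.72% of the 5519 genes. Both are bound genes, so it was in 25% of the 8 bound members with a promoter, beside 17.3% of the 197 genes on the bound list. The 10 matches are given here with 9 bases on each side, in the direction of the pattern, and the 11 bases of the match are in capitals.
Atg101 (chr15:101284231-101284259, plus strand): gggcgcggaTGGTTCCTTCCggttccacc
Bccip (chr7:133709090-133709118, minus strand): tgtgtgtagTGGTTTGGCCCatccgtctg
Cd164 (chr10:41519367-41519395, plus strand): gcttcctagTGGTCTCGCCCgttccgccc
Dnmt1 (chr9:20959895-20959923, minus strand): ctcaatgatTGGTGACTGCCtttggctcc
Dnmt1, second match (chr9:20959846-20959874, plus strand): tccacctgaTGGTTCCTTCCtccaatgac
Fam173b (chr15:31602092-31602120, plus strand): ctaagacgtTGGTAGATTCCacttccggt
Gnpda2 (chr5:69592495-69592523, plus strand): gctgaattgTGGTAGACTCCttgtaggat
Mia2 (chr12:59131426-59131454, plus strand): gggccgcagTGGTATGCGCCggccgctag
Mrps11 (chr7:78783123-78783151, minus strand): caaagggaaTGGTTCATTCCactcggtaa
Uchl1 (chr5:66676084-66676112, minus strand): cgcacagaaTGGTACAAGCCaagccccca
The 8 bound genes had a match that began within 61 bases of an annotated start, except *Cd164* (124 bases before it) and *Bccip* (234 bases before it). Of the 3 annotated starts of *Dnmt1* 1 had matches, 2 on opposite strands, 26 bases before and 23 bases after that start. Of the 3 annotated starts of *Mia2*, the third had the match. A match is a description of the letters and not evidence of a bound site.

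**Figure D1:**
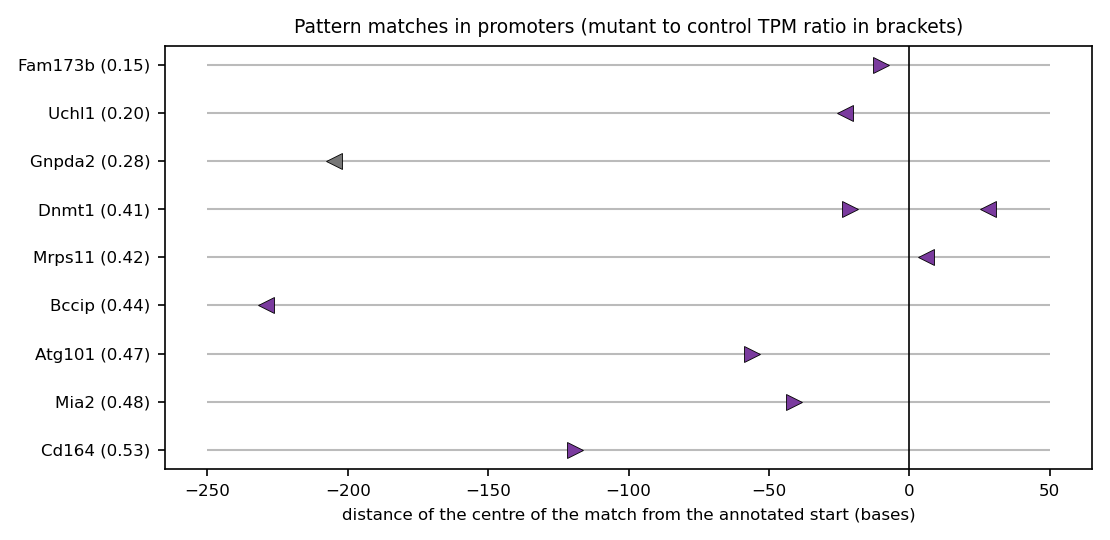
Position of each match to the pattern TGGTNNNNNCC in the promoters of 9 genes, as the distance in bases from the annotated start (vertical line) to the centre of the match. Grey lines span the window searched, arrowheads point right for a match on the strand of the gene and left for one on the other strand, purple marks genes on the bound list and grey *Gnpda2*, and brackets give the ratio of mutant to control mean TPM. Most matches lie close to the start, and those of *Bccip* and *Gnpda2* lie furthest before it.

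Non-overlap of the groups in the lower direction was found for 55 of the 7431 genes (0.74%), and in the opposite direction, with every mutant above every control, for 19 (0.256%). The 24 members were taken from the 55, so that share is given only as background. Ratios of mutant to control mean ranged from 0.0105 in *Mir1191* to 0.565 in *Ncapg*, with a median of 0.416, beside 0.964 over all 7431 genes. Each library is a whole embryo and TPM is relative to all other genes. Fewer cells expressing a gene and less of its RNA in each cell therefore cannot be told apart. The gap between the groups was often narrow. The lowest control was less than 1.2 times the highest mutant in 13 of the 24 genes and more than 1.5 times in 4, *Bccip*, *Rasl11a*, *Fam173b* and *Mir1191*.

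In a DESeq2 fit to the counts of all genes with batch as a covariate, 16 of the 22 members with an adjusted p passed the threshold as lower in mutants, where 92 of all 10448 genes tested did (0.881%). The 16 comprised 9 of the 10 bound genes and 7 others. The edgeR quasi-likelihood test called 8 of the 23 members it tested, against 26 of 10608 genes (0.245%). These 8 were *Cd164*, *Asah1*, *Mia2*, *Bccip*, *Fam173b*, *Slc31a1*, *Gm11544* and *Obox8*, so that 9 of the 16 members called by DESeq2 were not called by edgeR. Nothing is read from these counts, since the members were chosen on the same difference. *Ncapg*, *Dnmt1*, *Panx1*, *Gnpda2*, *Gm21762* and *Mbd5* did not pass in DESeq2, and it gave no adjusted p for *Obox8* and *Mir1191*.

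**Figure D2:**
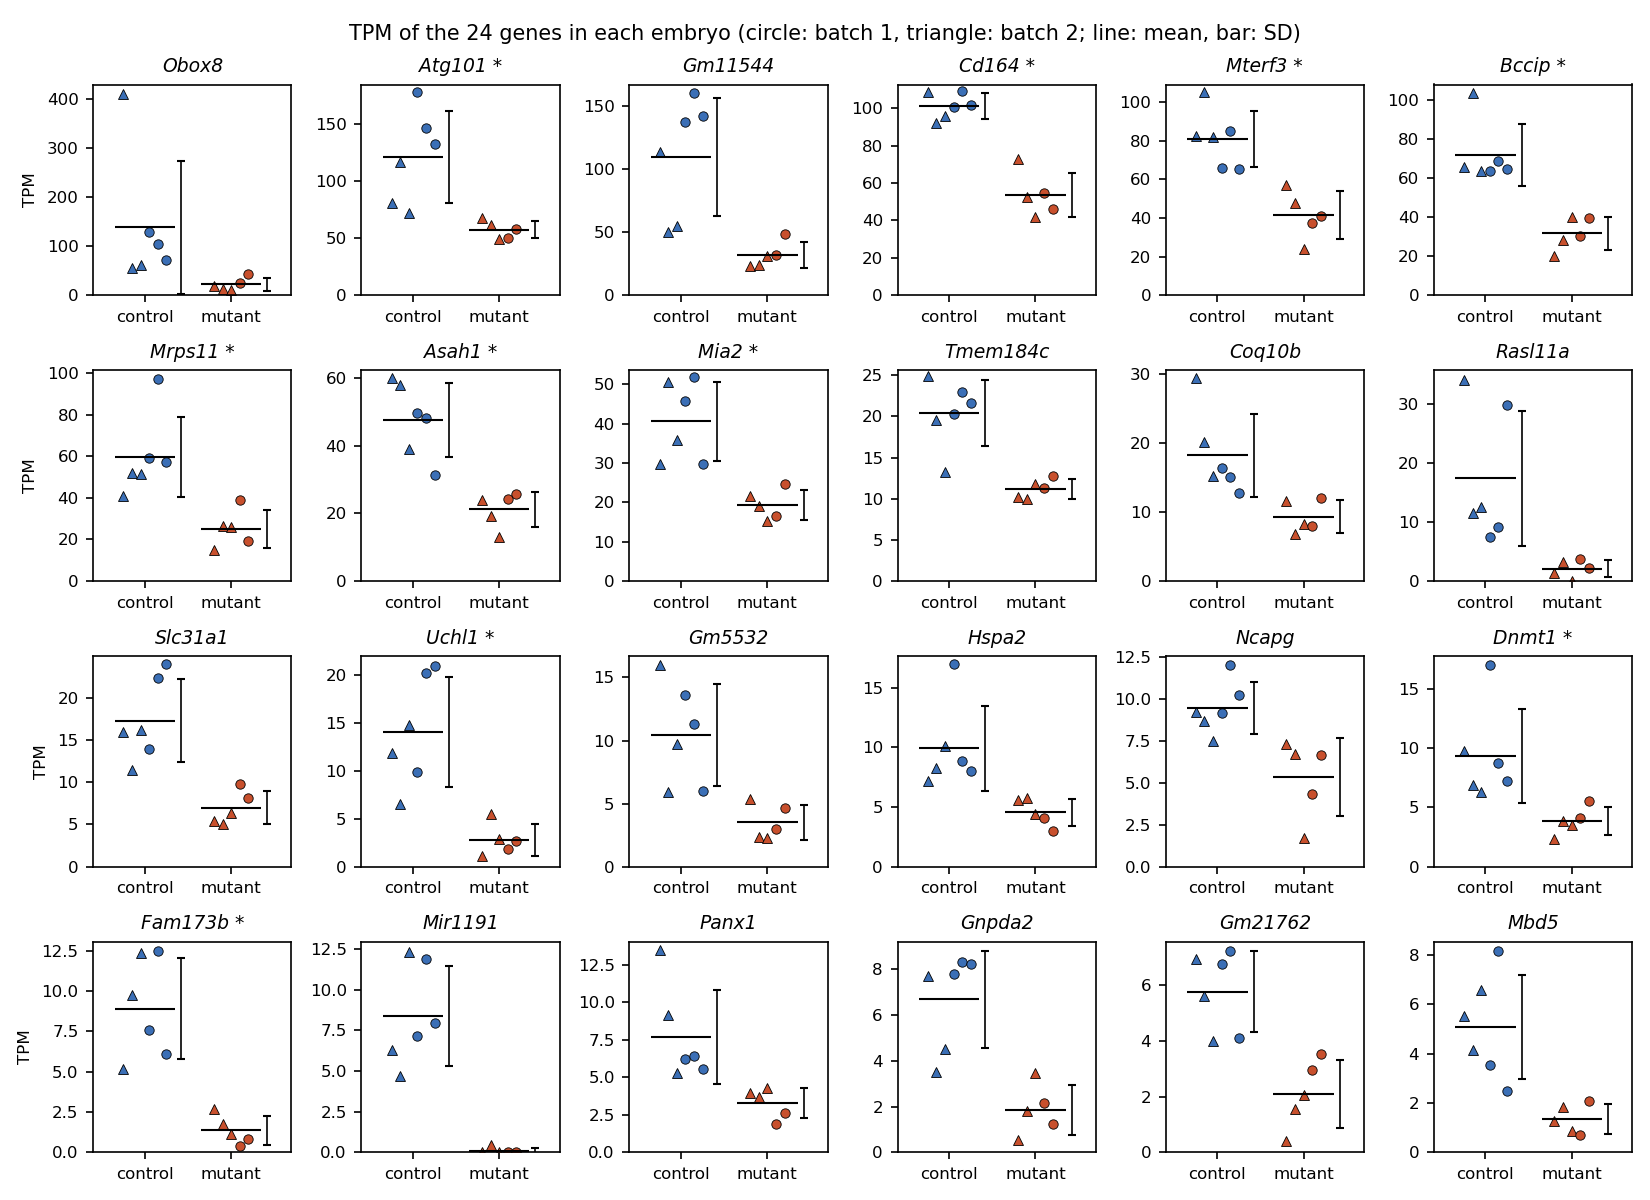
TPM of the 24 genes in each embryo, with controls in blue, mutants in red, batch 1 as circles and batch 2 as triangles. Horizontal lines are means, bars are SD (n = 6 controls, 5 mutants), and an asterisk marks genes on the bound list. In each panel the mutants lie below the controls, as the selection requires, with a wide gap in *Fam173b* and *Mir1191* and a narrow one in *Gnpda2* and *Gm11544*.

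The first group of genes concerns autophagy, lysosomes and membranes. *Atg101* (chr15:101284272-101290945, plus strand) encodes a subunit of the ULK1 complex, which starts the formation of autophagosomes. Its level ran from 71.8 to 178 TPM (median 124) in the 6 controls, and was 67.1, 61.3, 49.4, 50.4 and 57.7 TPM in mutant replicates 1 to 5. The mutants lay in a narrow band and the controls were spread widely, with the batch 2 controls in the lower part. The ratio of means was 0.473 and the log2 fold change in counts -0.97 ± 0.21 (SE). *Asah1* (chr8:41340197-41374773, minus strand) encodes acid ceramidase, the lysosomal enzyme that splits ceramide into sphingosine and a fatty acid. It was 31.2 to 60.0 TPM (median 48.9) in the 6 controls and 23.8, 19.2, 13.1, 24.1 and 25.6 TPM in the mutants, a ratio of 0.445 (log2 fold change -1.16 ± 0.21 (SE)). Mutant replicate 3 was the lowest and control replicate 6 came nearest to the mutants.

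*Cd164* (chr10:41519414-41531048, plus strand) encodes a sialomucin found at the cell surface and in lysosomes. It had the steadiest controls of the 24, 92.0 to 109 TPM (median 101) in the 6 controls, and its mutants were at 72.8, 52.7, 41.9, 54.5 and 46.0 TPM. The ratio was 0.529 and the log2 fold change -0.99 ± 0.17 (SE). *Mia2* (chr12:59095799-59191583, plus strand) encodes a membrane protein of endoplasmic reticulum exit sites that takes part in export of large cargo in COPII carriers. Values ran from 29.8 to 51.8 TPM (median 40.8) in the 6 controls and were 21.5, 19.0, 15.3, 16.5 and 24.6 TPM in the mutants, a ratio of 0.477 (log2 fold change -1.06 ± 0.20 (SE)).

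*Slc31a1* (chr4:62360727-62391769, plus strand) encodes CTR1, the main importer of copper into the cell. It ranged from 11.5 to 24 TPM (median 16.1) in the 6 controls, and stood at 5.42, 5.10, 6.4, 9.77 and 8.10 TPM in the mutants, so that batch 1 was the higher batch in mutants and held the 2 highest controls. Its ratio was 0.402 and its log2 fold change -1.29 ± 0.23 (SE). *Tmem184c* (chr8:77595982-77610698, minus strand), a gene for a multipass membrane protein, was 13.2 to 24.9 TPM (median 21) in the 6 controls and 10.2, 9.94, 11.8, 11.2 and 12.8 TPM in the mutants. The mutants agreed closely with each other, and control replicate 3 lay just above them. The ratio was 0.548 (log2 fold change -0.77 ± 0.19 (SE)). *Panx1* (chr9:15002128-15045478, minus strand) encodes pannexin 1, a channel that releases ATP from cells. Its control values ran from 5.31 to 13.4 TPM (median 6.33), highest in control replicates 1 and 2, and its mutants were at 3.98, 3.69, 4.29, 1.92 and 2.6 TPM. The ratio of means was 0.429 but that of medians was 0.583, and the log2 fold change was -1.55 ± 0.52 (SE).

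The second group of genes acts in mitochondria. *Mterf3* (chr13:66906968-66933088, minus strand) encodes a repressor of mitochondrial transcription that is also needed for the mitochondrial ribosome. It was 65.2 to 105 TPM (median 82.2) in the 6 controls, with 57.0, 47.5, 23.6, 37.3 and 41.0 TPM in the mutants, lowest in mutant replicate 3. The ratio was 0.511 and the log2 fold change -0.96 ± 0.20 (SE). *Mrps11* (chr7:78783119-78792989, plus strand) encodes a protein of the small subunit of the mitochondrial ribosome. Its values ran from 41.0 to 97.4 TPM (median 54.7) in the 6 controls and were 14.8, 26.4, 25.9, 38.8 and 19.0 TPM in the mutants, with mutant replicate 4 close to the lowest control. The ratio was 0.418 (log2 fold change -0.95 ± 0.26 (SE)).

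The effective length of *Mrps11*, a length that depends on which isoforms RSEM gave the reads to, averaged 786 bases in the 6 controls (SD 30.6) and 930.4 bases in the 5 mutants (SD 45.1). It was the only gene of the 24 whose effective lengths did not overlap between the groups. In CPM, counts scaled to library size without the division by length, its ratio was 0.496.

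*Fam173b* (chr15:31601852-31621227, plus strand) encodes a mitochondrial methyltransferase that modifies the c subunit of ATP synthase. It was 5.19 to 12.4 TPM (median 8.68) in the 6 controls and 2.69, 1.76, 1.16, 0.38 and 0.82 TPM in the mutants. All mutants were far below the lowest control, and the 2 of batch 1 were the lowest. The ratio was 0.153, the smallest among the bound genes (log2 fold change -2.55 ± 0.47 (SE)). Depth was low, with 4 to 20 expected counts in a mutant library and a median of 40.5 in controls. *Coq10b* (chr1:55052770-55072702, plus strand) encodes a binding protein of coenzyme Q, the electron carrier of the respiratory chain. Its level ran from 12.8 to 29.5 TPM (median 15.9) in the 6 controls and 11.6, 6.79, 8.32, 8.03 and 12.1 TPM in the mutants. The highest control was in batch 2 and the highest mutant in batch 1, and the ratio was 0.513 (log2 fold change -0.95 ± 0.28 (SE)).

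The third group concerns the cell cycle and DNA methylation. *Bccip* (chr7:133709333-133721145, plus strand) encodes a partner of BRCA2 and of the cell cycle inhibitor p21. Its controls ran from 63.6 to 104 TPM (median 65.3), and all but control replicate 2 were at or below 69.0 TPM. The mutants were at 20.2, 28.1, 40.1, 30.5 and 39.6 TPM, a ratio of 0.442 (log2 fold change -1.17 ± 0.23 (SE)). *Ncapg* (chr5:45669919-45700546, plus strand) encodes a subunit of condensin I, which compacts chromosomes in mitosis. It was 7.49 to 12.0 TPM (median 9.16) in the 6 controls and 7.27, 6.73, 1.73, 4.34 and 6.64 TPM in the mutants, with mutant replicate 1 only just below the lowest control and mutant replicate 3 far below the rest. The ratio was 0.565, nearest of all 24 to the limit (log2 fold change -0.77 ± 0.33 (SE)).

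*Dnmt1* (chr9:20907209-20959888, minus strand) encodes the DNA methyltransferase that copies methylation onto the new strand after replication. Its values ran from 6.34 to 17.1 TPM (median 8.00) in the 6 controls, the highest in control replicate 4, and were 2.30, 3.85, 3.52, 4.12 and 5.52 TPM in the mutants. The ratio was 0.413, and in CPM the groups overlapped (log2 fold change -1.05 ± 0.33 (SE)), as they did for *Panx1*. *Mbd5* (chr2:48949508-49325405, plus strand) encodes a protein with a methyl-CpG binding domain. Its control mean, 5.08 TPM, was the lowest of the 24. It was 2.49 to 8.17 TPM (median 4.84) in the 6 controls and 1.29, 1.85, 0.85, 0.72 and 2.07 TPM in the mutants, and its ratio was 0.267. Its effective length averaged 2247 bases in the 6 controls (SD 776) and 4118 bases in the 5 mutants (SD 1213), and in CPM the ratio was 0.491. Its log2 fold change in counts was -1 ± 0.38 (SE).

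The fourth group concerns protein turnover, metabolism and signalling, and a homeobox gene. *Uchl1* (chr5:66676091-66687234, plus strand) encodes a ubiquitin hydrolase that recycles ubiquitin, well known from neurons and germ cells. It was 6.53 to 20.9 TPM (median 13.3) in the 6 controls, and 1.06, 5.47, 2.83, 1.87 and 2.70 TPM in the mutants. Mutant replicate 2 stood above the other mutants and just below control replicate 2. The ratio was 0.199 (log2 fold change -1.88 ± 0.51 (SE)). *Hspa2* (chr12:76404176-76406938, plus strand) encodes an HSP70 chaperone best known from the testis. Its level ran from 7.21 to 17.0 TPM (median 8.60) in the 6 controls, the highest in control replicate 4, and was 5.56, 5.73, 4.44, 4.05 and 2.99 TPM in the mutants. The ratio was 0.459 (log2 fold change -1.11 ± 0.30 (SE)).

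*Gnpda2* (chr5:69573108-69592340, minus strand) encodes an enzyme that converts glucosamine 6-phosphate to fructose 6-phosphate. It was 3.51 to 8.32 TPM (median 7.76) in the 6 controls and 0.54, 1.83, 3.46, 2.15 and 1.26 TPM in the mutants. Mutant replicate 3 nearly reached control replicate 2, the narrowest gap of the 24 genes, and in CPM the groups overlapped. The ratio was 0.276 and the log2 fold change -1.84 ± 0.56 (SE). *Rasl11a* (chr5:146845071-146847726, plus strand) encodes a small GTPase related to Ras. Its controls ran from 7.51 to 34.0 TPM (median 12.0), with control replicates 1 and 6 well above the other four, and its mutants were at 1.31, 3.20, 0, 3.68 and 2.25 TPM. The ratio was 0.12 (log2 fold change -2.89 ± 0.60 (SE)).

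*Obox8* (chr7:14331436-14333557, minus strand) belongs to the oocyte-specific homeobox family, whose genes are active in oocytes and early embryos. It was 56.2 to 408 TPM (median 88.0) in the 6 controls, and 17.8, 12.6, 11.4, 24.1 and 43.2 TPM in the mutants. Control replicate 1 was more than 3 times as high as any other control, and without that embryo the ratio of means was 0.259 in place of 0.158. Over all 11 embryos the log2 fold change was -2.69 ± 0.62 (SE).

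The remaining 4 members are RNAs or predicted genes. *Gm11544* (chr11:94845358-94846092, minus strand), annotated as an unprocessed pseudogene, shared 17.9% of its 31-base words with transcripts of *Tmem92*. It was 49.9 to 160.1 TPM (median 125) in the 6 controls and 23.5, 23.9, 30.9, 32.2 and 48.7 TPM in the mutants, a ratio of 0.291 (log2 fold change -1.65 ± 0.29 (SE)). *Tmem92* was at 6.99 to 22.3 TPM in controls and 5.95 to 13.9 TPM in mutants, which overlap. *Gm5532* (chr1:155520173-155527143, minus strand), a lincRNA, was 5.96 to 16.0 TPM (median 10.5) in the 6 controls and 5.35, 2.35, 2.27, 2.97 and 4.67 TPM in the mutants, a ratio of 0.338 (log2 fold change -1.54 ± 0.37 (SE)).

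*Gm21762* (chr13:120214593-120215947, minus strand), a predicted coding gene, shared 80.4% of its words with *D13Ertd608e*, so the division of reads between them is uncertain. *Gm21762* was 3.98 to 7.21 TPM (median 6.19) in the 6 controls and 0.41, 1.55, 2.06, 2.97 and 3.52 TPM in the mutants, a ratio of 0.364 (log2 fold change -1.25 ± 0.61 (SE)), and in CPM the groups overlapped. *D13Ertd608e* was at 0 to 7.74 TPM (mean 4.33) in controls and 0 to 1.92 TPM (mean 0.624) in mutants, which overlap. *Mir1191* (chr7:27205536-27205655, plus strand) lies within *BC024978*, and all of its words occur in transcripts of that gene. Its TPM ran from 4.68 to 12.3 TPM (median 7.55) in the 6 controls and was 0, 0.44, 0, 0 and 0 in the mutants, but this rests on a median of 1.75 expected counts per control, and the library type does not capture mature microRNAs as such. *BC024978* itself was at 1.36 to 4.89 TPM in controls and 1.61 to 3.10 TPM in mutants.

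Values near the limits of the selection were as follows. Just inside were *Ncapg* and *Tmem184c* by their ratios (0.565 and 0.548), *Mbd5* by its control mean (5.08 TPM) and *Gnpda2* by the gap between the groups (lowest control 1.01 times the highest mutant). Just outside were *1110004F10Rik* and *Hmox2*, with ratios of 0.602 and 0.614, and *Gm11688*, with a control mean of 4.75 TPM. A further 65 genes had a ratio of at most 0.5 and were kept out by 1 overlapping embryo. Named after their values were seen, these included *Sco2*, with 39.5 ± 21.7 TPM (SD, n = 6) in controls and 14.0 ± 6.85 TPM (SD, n = 5) in mutants, which like *Slc31a1* handles copper, and *Gm24233*, a snoRNA inside *Mia2* that was listed at 0 in all 5 mutants and in 1 control.

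The members were then set against other genes of their complexes and pathways, in lists written with earlier results of these data known. Each list was written around a member already chosen for being lower, so the member's own call follows from the selection. Of the members' calls that the lists count, that of *Coq10b* held in 1 of the 11 fits with 1 embryo left out, that of *Uchl1* in 3, that of *Hspa2* in 4 and that of *Mrps11* in 5, and the others held in all 11. Of the 5 genes of the ULK1 complex only *Atg101* passed the DESeq2 threshold as lower and none as higher, and 3 of the 5 had a fold change below 0. On the log2 scale the partners were at -0.47 ± 0.37 (SE; adjusted p = 0.675) for *Ulk2*, -0.11 ± 0.15 (SE; adjusted p = 0.868) for *Rb1cc1*, 0.16 ± 0.15 (SE; adjusted p = 0.748) for *Atg13* and 0.31 ± 0.19 (SE; adjusted p = 0.544) for *Ulk1*, and the median of the 5 was -0.11. Of 33 genes of the small subunit of the mitochondrial ribosome 1 was lower, *Mrps11*, and 16 of the 33 had a fold change below 0. Of 7 genes of the MTERF list 1 was lower, *Mterf3*, and 6 of the 7 had a fold change below 0 (median -0.14). The coenzyme Q list had 1 of 13 lower, *Coq10b*, and 6 of the 13 below 0. The COPII list had 1 of 14 lower, *Mia2*, and 10 of the 14 below 0. In the COPII and HSP70 lists (10 tested, 1 lower, *Hspa2*) and in that of partners of BRCA2 and p21 (5 tested, 1 lower, *Bccip*) no gene was higher. The median log2 fold change over all genes tested was -0.0012.

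Among 10 genes of lysosomal sphingolipid breakdown *Asah1* was lower and *Psap*, which encodes the precursor of the saposins, was higher, at 155 ± 81.5 TPM (SD, n = 6) in controls and 236 ± 145 TPM (SD, n = 5) in mutants (log2 fold change 0.71 ± 0.17 (SE; adjusted p = 0.00411)). The copper list had 1 of 12 lower, *Slc31a1*, with 8 of the 12 below 0 and a median log2 fold change of -0.13. Of its other tested genes the 2 furthest below 0 did not pass. *Sco2*, an assembly factor of cytochrome c oxidase, was at -1.48 ± 0.44 (SE; adjusted p = 0.0539) and *Atp7a*, a copper exporter, at -1.39 ± 0.52 (SE; adjusted p = 0.183) on the log2 scale. The rest of the copper list ran from -0.32 ± 0.87 (SE) in *Slc31a2* to 0.26 ± 0.27 (SE) in *Ccs*. Of the 4 UCH deubiquitinases *Uchl1* and *Uchl3* were lower, *Uchl5* was at -0.06 ± 0.17 (SE; adjusted p = 0.945) and *Bap1* at 0.45 ± 0.28 (SE; adjusted p = 0.569). Of 8 amino sugar genes *Gnpda1*, the paralog of *Gnpda2*, was lower, at 67.8 ± 22.2 TPM (SD, n = 6) in controls and 42.5 ± 14.4 TPM (SD, n = 5) in mutants (log2 fold change -0.57 ± 0.17 (SE; adjusted p = 0.0497)). *Rasl11a* was 1 of 2 tested genes of the RASL list and the 1 that was lower.

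No gene passed among the 8 tested of DNA methylation, the 6 of the methyl-CpG binding family, the 8 of the condensins and the 1 pannexin. Fold changes were below 0 for all 6 of the methyl-CpG binding family (median log2 fold change -0.65). They were below 0 for 5 of the 8 of DNA methylation and 5 of the 8 of the condensins. *Uhrf1*, which brings DNMT1 to newly replicated DNA, was at -0.84 ± 0.47 (SE; adjusted p = 0.504) on the log2 scale. *Mbd2*, of the methyl-CpG binding family, which had too few reads to be tested, was at 0.53 ± 0.771 TPM (SD, n = 6) in controls and 1.64 ± 1.65 TPM (SD, n = 5) in mutants. *Dnmt3a* and *Dnmt3b*, which set new methylation, were at 0.16 ± 0.23 (SE; adjusted p = 0.876) and 0.41 ± 0.31 (SE; adjusted p = 0.657). In all 16 lists the called genes that were no member were *Uchl3* and *Gnpda1*, lower, and *Psap*, higher. Over all 10448 genes tested 0.881% were lower, and no share for higher was counted. Since the lists are short, nothing is read from the number of calls in them. *Uchl3*, with a ratio of 0.291, is one of the genes set aside by name, so its call is no independent observation.

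**Figure D3:**
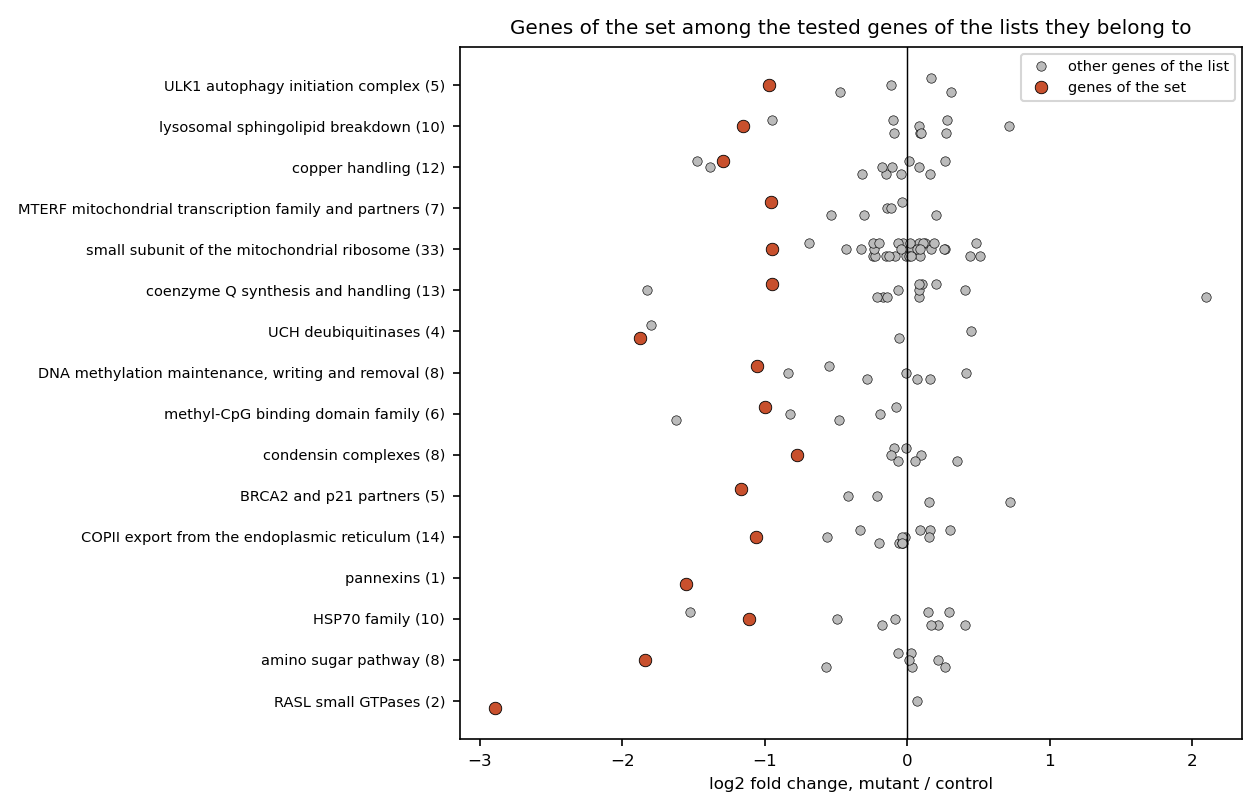
Log2 fold change of mutants over controls (DESeq2, batch as a covariate) for the tested genes of each list, with the number tested in brackets. Large red points are members of the 24 and small grey points are the other genes of the list. The red points were chosen for being lower. The grey points of the mitochondrial ribosome list, 32 genes, gather near 0.

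Agreement between the batches was examined next. The mean of mutants was at most 0.6 times that of controls in both batches for 20 of the 24 genes. The median ratio was 0.389 in batch 1 (2 mutants, 3 controls) and 0.384 in batch 2 (3 of each), and the ratio was the smaller in batch 1 for 11 genes. The direction within each batch was fixed by the selection. The limit of 0.6 on the pooled ratio also constrains the size of the ratio in each batch. Neither is a sign of agreement by itself. The 4 exceptions were *Coq10b*, with 0.681 in batch 1 and 0.41 in batch 2, *Atg101* with 0.355 and 0.662, *Hspa2* with 0.311 and 0.613, and *Ncapg* with 0.525 and 0.62. *Mia2* and *Tmem184c* had nearly the same ratio in both batches, 0.483 and 0.481, and 0.556 and 0.554. *Fam173b*, *Uchl1* and *Gnpda2* were lower in batch 1, at 0.0689, 0.135 and 0.21, than in batch 2, at 0.205, 0.283 and 0.37. *Obox8*, *Rasl11a* and *Gm21762* had the smaller ratio in batch 2, at 0.0795, 0.0776 and 0.243, against 0.332, 0.191 and 0.538 in batch 1. *Asah1* and *Bccip* differed in the same direction, at 0.358 and 0.379 in batch 2 and 0.579 and 0.532 in batch 1.

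**Figure D4:**
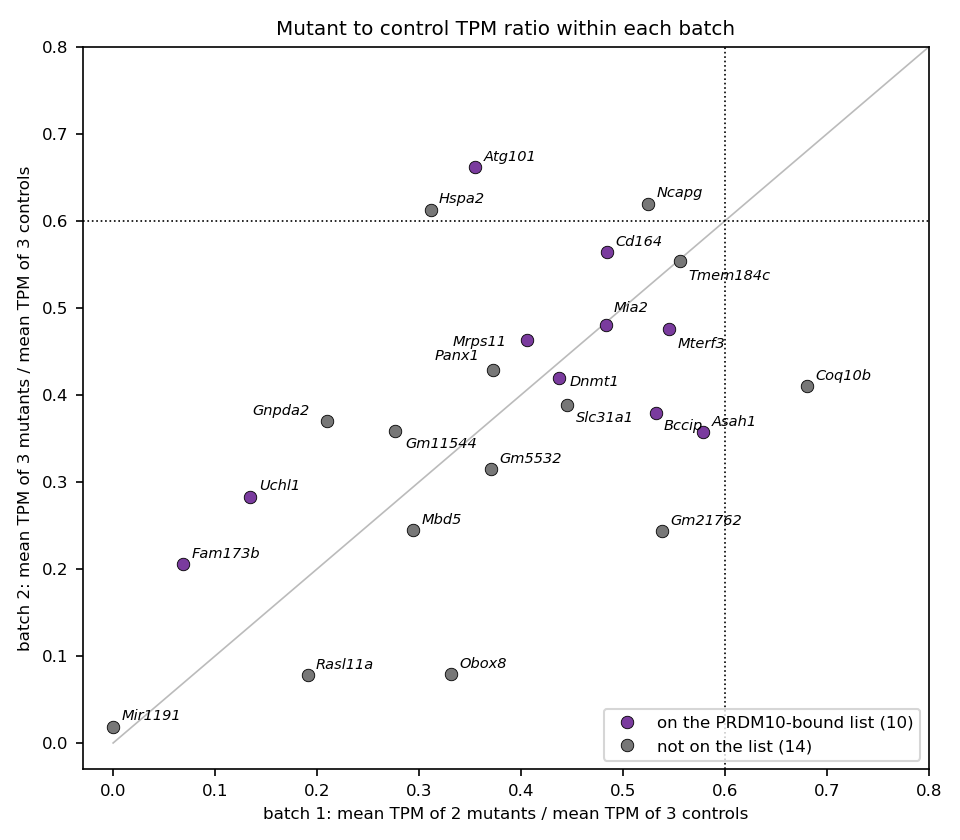
Ratio of mutant to control mean TPM of each of the 24 genes in batch 1 (horizontal) and batch 2 (vertical). Dotted lines mark the limit of 0.6 that the selection set on the pooled ratio, the grey line marks equal ratios, and purple points are genes on the bound list. *Coq10b* lies beyond the limit in batch 1, and *Atg101*, *Hspa2* and *Ncapg* in batch 2.

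A difference in level between the batches, whatever the genotype, passed the threshold for 1 of the 22 members tested, *Mterf3*, which was higher in batch 2 (log2 fold change 0.51 ± 0.20 (SE), DESeq2 adjusted p = 0.0489). Of all 10448 genes tested 27.9% passed. No member passed with edgeR (22.1% of all genes), with TMM factors in DESeq2 (27.8%), or without control replicate 2, 4, 5 or 6 or mutant replicate 1, 2, 4 or 5. The selection asked for mutants of both batches to lie below controls of both, so a gene with a large batch difference meets it less easily, and the members' share is not independent of the selection. The interaction of batch and genotype passed for 0 of 22 members in DESeq2, beside 0.0382% of 10472 genes. At an unadjusted p under 0.05 it was found for 1 member, beside 4.3% of all genes. This was *Atg101* (difference in log2 fold change, batch 2 minus batch 1, 0.91 ± 0.35 (SE), adjusted p = 0.9997). The edgeR test called 0 members, as it called 0 of all 10608 genes, and had 2 at an unadjusted p under 0.05, *Atg101* and *Obox8*, beside 3.23% of all genes. The selection on both batches also disfavours a gene whose difference depends on the batch, so these counts are not independent of it either.

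The spread within the groups was uneven among embryos. Control replicate 5 was the highest control for 9 of the 24 genes and control replicate 1 for 7, while control replicates 2 and 3 were the lowest for 8 and 7. Mutant replicate 5 was the highest mutant for 9 and mutant replicate 3 the lowest for 9. The coefficient of variation of the controls had a median of 28.7% over the bound members and 36.4% over the others, from 6.79% in *Cd164* to 97.7% in *Obox8*.

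Several members start beside another gene on the opposite strand, and these neighbours were not chosen by the selection. Of 11 neighbours whose start lay within 1000 bases of that of a member, 6 had enough reads to be tested. None of the 6 passed in DESeq2 or in edgeR, and none had an unadjusted p under 0.05. Over all genes tested 0.881% were lower in DESeq2 and 0.245% in edgeR. At such shares 6 genes would seldom hold a call, so this count says little about the neighbours. *Cct5*, a subunit of the chaperonin TRiC, starts 48 bases from *Fam173b* and was at 330.0 to 531 TPM in controls and 279 to 455 in mutants. Its groups overlapped, and its log2 fold change was -0.19 (95% interval -0.50 to 0.12), where that of *Fam173b* was -2.55 ± 0.47 (SE). *Mrpl46*, of the large subunit of the mitochondrial ribosome, starts 412 bases from *Mrps11* and was at 84.9 to 118 TPM in controls and 78.6 to 130.5 in mutants, a log2 fold change of -0.08 (95% interval -0.43 to 0.27).

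*Fkbp15*, 179 bases from *Slc31a1*, was at -0.30 (95% interval -0.92 to 0.32) on the log2 scale, and *Ptdss1*, a phosphatidylserine synthase gene 258 bases from *Mterf3*, at -0.14 (95% interval -0.49 to 0.21). *Uros*, a heme synthesis gene 739 bases from *Bccip*, was at -0.13 (95% interval -0.96 to 0.71). *Orc4*, of the origin recognition complex, starts 769 bases from *Mbd5* and was at 97.9 to 186 TPM in controls and 66.5 to 183 in mutants, with a log2 fold change of -0.43 (95% interval -0.996 to 0.14). The difference between member and neighbour was not tested, since the members' values were chosen for being low. The other 5 neighbours (*E330011M16Rik*, *4930426I24Rik*, *1600023N17Rik*, *4933431K23Rik* and *Uchl1os*) averaged under 1 TPM in both groups. The libraries do not mark strand, so reads from a stretch where 2 such genes overlap, as in *Mrps11* and *Mrpl46* (413 bases) or *Gnpda2* and *Guf1* (2866 bases), cannot be told apart. *Guf1* was at 2.59 to 9.14 TPM in controls and 1.10 to 6.62 TPM in mutants. The promoters of the 3 bound members that hold the pattern and have a tested neighbour are shown here whole, 5′ to 3′ on the strand of the member, from RefSeq (GRCm38.p6), with the match in capitals.
Fam173b (chr15:31601866-31602165, plus strand): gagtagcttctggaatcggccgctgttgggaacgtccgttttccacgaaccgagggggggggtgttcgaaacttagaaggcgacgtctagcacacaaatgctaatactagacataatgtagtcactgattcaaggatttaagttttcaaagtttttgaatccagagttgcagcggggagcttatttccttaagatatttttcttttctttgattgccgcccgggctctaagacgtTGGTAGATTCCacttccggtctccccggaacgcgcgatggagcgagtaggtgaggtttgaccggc
Mrps11 (chr7:78782881-78783180, plus strand): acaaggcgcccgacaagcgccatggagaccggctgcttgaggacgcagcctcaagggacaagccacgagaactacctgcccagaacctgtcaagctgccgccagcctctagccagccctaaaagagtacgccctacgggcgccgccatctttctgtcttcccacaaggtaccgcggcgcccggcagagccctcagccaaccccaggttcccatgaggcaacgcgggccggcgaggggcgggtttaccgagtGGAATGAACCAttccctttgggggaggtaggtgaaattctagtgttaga
Bccip (chr7:133709083-133709382, plus strand): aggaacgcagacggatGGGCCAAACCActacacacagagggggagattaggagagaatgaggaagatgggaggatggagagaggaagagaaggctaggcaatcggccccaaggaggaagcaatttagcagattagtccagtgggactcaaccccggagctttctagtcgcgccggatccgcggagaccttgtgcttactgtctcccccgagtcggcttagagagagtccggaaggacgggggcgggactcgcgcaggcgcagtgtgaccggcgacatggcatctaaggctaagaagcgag

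**Figure D5:**
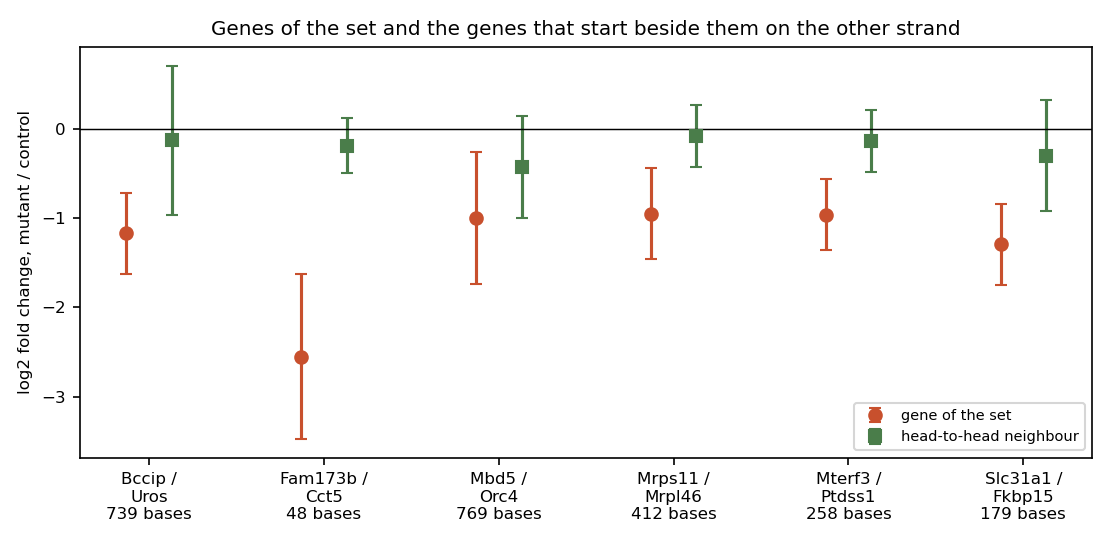
Log2 fold change of mutants over controls with its 95% interval (DESeq2, batch as a covariate, n = 6 controls and 5 mutants) for 6 members (red circles) and the gene that starts beside each on the other strand (green squares), with the distance between the starts. The members were chosen for being lower and the neighbours were not, and the intervals of all 6 neighbours include 0.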

How the data were processed

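Single-embryo libraries of 6 controls and 5 mutants were made by Smart-seq2 with tagmentation and single-end reads, in 2 batches. Per the labels, reads were processed with STAR (version 2.6.0c) and RSEM on GRCm38.p6. For each embryo the authors deposited a table of 54146 genes with the RSEM expected count (not whole where reads are shared between genes), the TPM, which sums to 1 fixed total per library, and an effective length per gene. Gene IDs were paired with symbols for 54079 genes. The authors' own comparison table holds DESeq2 (version 1.22.2) means, fold changes and p-values and was not used. No molecular identifiers were used, and nothing states that the embryos of a group came from separate litters.

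Expected counts were rounded and fitted over all genes with DESeq2 (version 1.42.0, R version 4.3.3), with batch and group as terms. Calls needed a Benjamini-Hochberg adjusted p under 0.05 and a mean normalised count above 10. Missing adjusted p-values stayed missing. Alternatives used edgeR (version 4.0.16) and limma (version 3.58.1). Members, lists, neighbours and tests were chosen with earlier results of these data known. All members are named in the text. Of list genes those past the threshold are named, with some others that did not pass and were chosen under no set rule. Of the 65 genes kept out by 1 embryo only 2 are named. Symbols, positions and transcripts were from GENCODE vM21, and promoters from RefSeq, both on the same build. Replicate numbers follow the order of the records and pair no embryos.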

Additional observations from a re-analysis of the deposited data

Results flagged for a closer look

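In 6 of the 48 groups of TPM values (24 genes, controls and mutants apart) 1 embryo stood far from the others, with a gap to its nearest neighbour above Dixon's critical value. Chance alone flags about 1 in 20 such groups, and the cause was not tested in any of them. *Obox8* was at 408 TPM in control replicate 1, where the next control was at 129 TPM. *Bccip* was at 104 TPM in control replicate 2, with the next control at 69.0 TPM. *Mrps11* was at 97.4 TPM in control replicate 5 and 59.0 TPM in the next control. *Hspa2* and *Dnmt1* were both highest in control replicate 4, at 17.0 TPM (next control 10.1 TPM) and 17.1 TPM (next control 9.78 TPM). *Mir1191* was at 0.44 TPM in mutant replicate 2 and listed at 0 in the other mutants, a value that rests on under 1 expected count.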

How the results depend on the processing

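The number of genes that met the selection was 24. A control mean of at least 10 TPM gave 15, and the same conditions within 1 batch, where fewer embryos must be separated, gave 367 in batch 1 and 275 in batch 2. Leaving out each embryo in turn gave 27 to 52 genes, with 23 or 24 of the 24 still selected, which the selection nearly fixes, since leaving out an embryo cannot make separated groups overlap. The counts were 37, 47, 42 and 42 without control replicates 1, 2, 3 and 6, and 52, 52 and 48 without mutant replicates 1, 4 and 5. Levels in CPM gave 36 genes, of which 19 were among the 24.

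Members called lower in the count fit numbered 16. They were 8 with edgeR, 6 and 5 with limma on log2(TPM + 1) and log2(TPM + 0.1) (0.18% and 0.171% of all genes), 6 in batch 1 alone (0.455%) and 6 in batch 2 alone (0.344%), and 11 to 17 with 1 embryo left out (0.567% to 1.08%). Members with a batch difference numbered 1, and were 0 with edgeR, 0 with TMM factors and 0 to 3 with 1 embryo left out (3 without control replicate 1, 2 without mutant replicate 3). The stricter motif was in 11.1% of members with a promoter. The interaction (0 called) and the neighbours (0 called) gave 0 in every alternative run. Of 384 recomputed TPM ratios of single members 374 moved by less than 1 SD of the mutants. For left-out embryos and single batches the selection fixes that these ratios stay below 1. The cause of these differences was not tested, beyond the fewer embryos or genes entering some fits. No paired analysis was possible because the labels carry no replicate numbers that embryos of both groups share. Low counts limit *Mir1191*, *Gm21762*, *Fam173b* and *Uchl1* most.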
